A study of Rattus norvegicus with 6 samples.

Results

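The transcripts described here are the curated RefSeq noncoding RNAs of the rat, other than microRNAs, that were printed on a lncRNA array and measured in the hippocampus after denervation. Members are probes whose identifier begins with a RefSeq NR accession (a reviewed noncoding transcript) and whose gene in the RefSeq table is not named as a microRNA gene. The 7 genes H19, Nnat, Gas5, Snhg4, Bc1, Terc and Rpph1 and genes on the X and Y chromosomes are left out. Of 6716 probes, 381 carried an NR accession, 292 of these belonged to microRNA genes, 7 were left out by name and 1 lay on X or Y. A further 9 NR transcripts had no gene in the table, so that neither their name nor their chromosome could be checked, and they were set aside. The 72 probes that remained stood for 64 genes on 19 chromosomes, and 7 genes had several probes. The rule itself uses only identifiers, gene names and chromosomes, but it was set with earlier results of these data known.

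Noncoding RNA is a mixed class. Ribosomal RNAs form the core of the ribosome, small nucleolar RNAs guide the modification of ribosomal RNA, and small nuclear RNAs work in splicing. Long noncoding RNAs (lncRNAs) are longer transcripts without a long open reading frame, some of them antisense to a coding gene, and several act in brain development and in neurons. Transcribed pseudogenes are copies of genes that have lost the coding frame, and a protein-coding gene can also give spliced variants that are annotated as noncoding. By the gene type in RefSeq the 72 probes comprised 19 lncRNA probes of 17 genes and 33 probes for noncoding transcripts of 27 protein-coding genes. A further 13 were transcribed pseudogenes and 5 ribosomal RNAs. The other 2 were small RNAs, LOC252890 typed as a small nuclear RNA and Snora36c typed as a microRNA. Snora36c was classed here by its name. A probe for a noncoding variant may share sequence with the coding mRNA of the same gene, and which of the transcripts it measured was not tested. A pseudogene probe may likewise share sequence with the mRNA of the copied gene, and this was not tested either.

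One member illustrates how the boundary of the class was drawn. Snora36c carries the name of a small nucleolar RNA gene, but RefSeq gives its gene type as microRNA, with the synonym Mir664-1. Its name kept it among the members. Its hairpin is shown beside that of Mir664-2, a microRNA gene outside the members, because the pair is nearly identical and both were measured. The sequences are those of RefSeq on GRCr8, 5′ to 3′, at chr18:48150366-48150424 and chr13:99324650-99324708 on the plus strand, and capitals mark the 2 mature microRNA arms.
Snora36c: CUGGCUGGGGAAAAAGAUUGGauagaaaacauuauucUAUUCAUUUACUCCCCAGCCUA
Mir664-2: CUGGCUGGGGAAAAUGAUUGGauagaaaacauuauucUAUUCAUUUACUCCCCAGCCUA
Of the 59 bases 58 are identical, and the only substitution is A15U, with the base of Snora36c first and positions counted from the 5′ end. The 3′ arms have the same sequence.

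The denervated group comprised 3 hippocampi of Sprague–Dawley rats taken on day 7 after transection of the fimbria–fornix (FF), the fibre bundle that carries the septal cholinergic input to the hippocampus. The normal group comprised 3 hippocampi without transection, also of Sprague–Dawley rats, and no sham operation was named for it. The methods describe denervated and untreated tissue from 3 paired rats of both sexes. Whether the normal hippocampi came from the operated rats is not stated clearly. No source used here states which samples came from the same rat or which sex each sample had. Each sample is whole hippocampal tissue, in which fewer cells of a type and less RNA per cell cannot be told apart.

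Total RNA was labelled with Cy5 and hybridized in 1 colour, and every value below is the authors' log2 normalized intensity. Differences are denervated minus normal on the log2 scale, so that 1 stands for a doubling. All arrays had medians between 10.17 and 10.19. The groups did not separate over all probes. Pearson's r between samples averaged 0.81 within groups and 0.82 between groups, and normal sample 2 resembled denervated sample 3 (r = 0.87) more than it resembled normal sample 1 (r = 0.73) or normal sample 3 (r = 0.76). Denervated sample 2 likewise resembled normal sample 1 (r = 0.89) more than denervated sample 3 (r = 0.76). These correlations are across probes, which are not independent replicates. The table held no set of mRNA probes for cell type markers, so the tissue label was not checked against such markers.

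Over the members the pattern was the same. Pearson's r averaged 0.83 within groups (0.74 to 0.93) and 0.82 between groups (0.57 to 0.91). It was highest between normal samples 1 and 3 and lowest between denervated sample 2 and normal sample 2. The median intensity of the members was 9.73, 9.85 and 9.98 in the denervated samples, against 9.79, 9.95 and 9.82 in the normal samples. Denervated sample 2 held the lowest value of 27 members and normal sample 2 the highest value of 28 members, more than any other sample in each case.

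**Figure D1:**
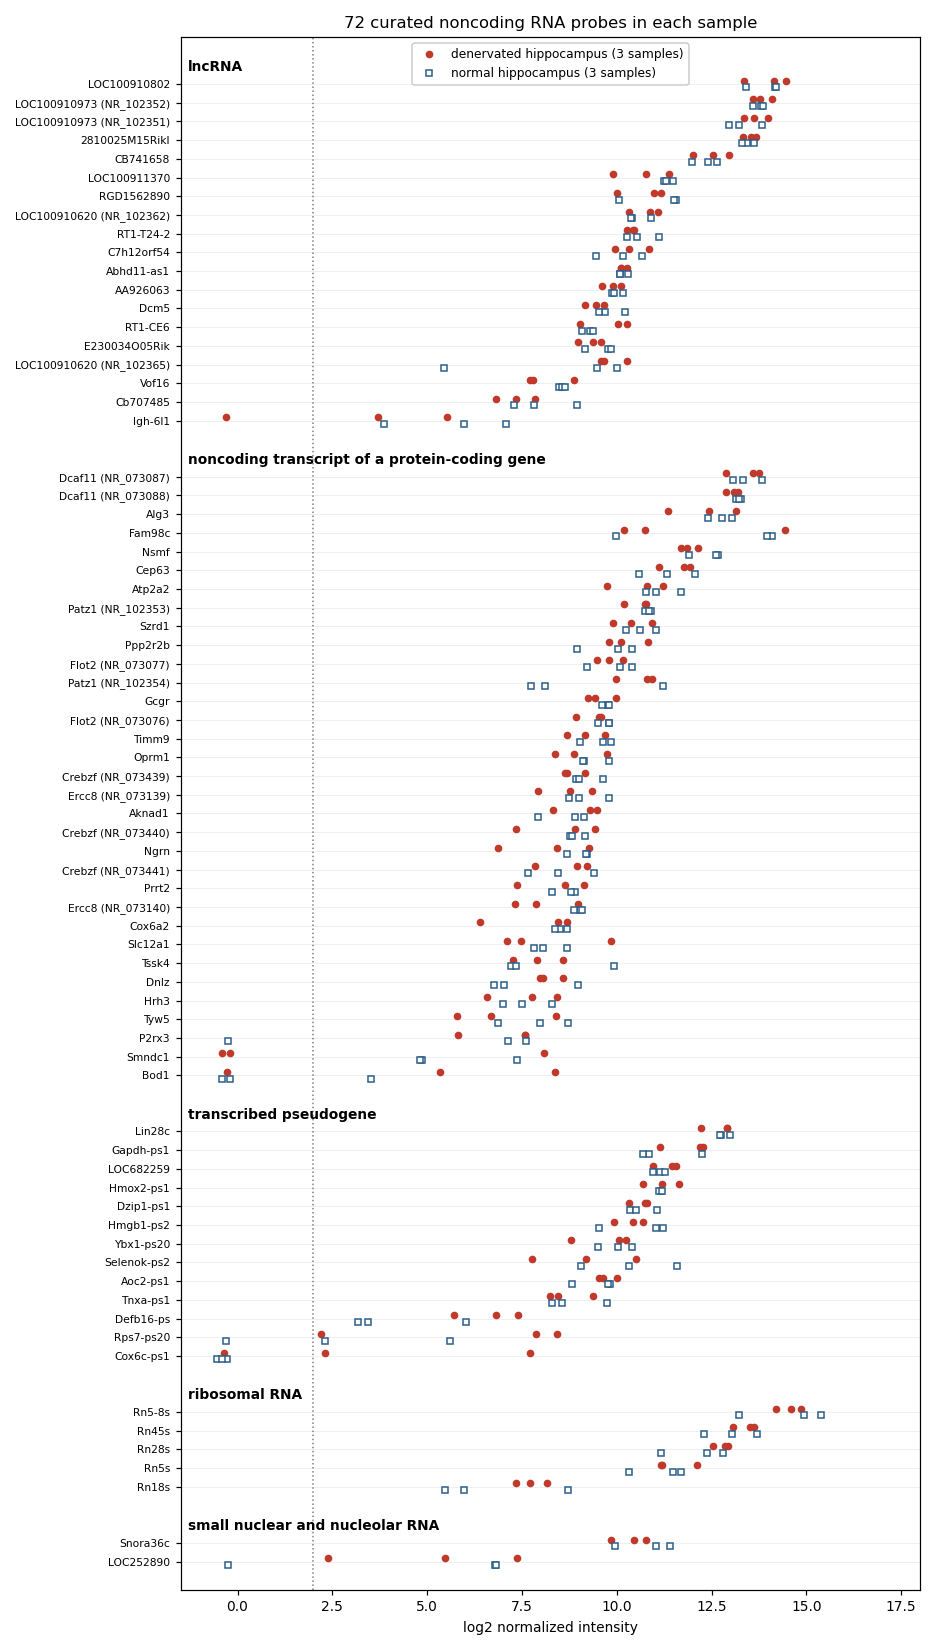
log2 normalized intensity (x axis) of the 72 members (rows, by class and in order of mean intensity) in the 3 denervated (filled circles) and 3 normal hippocampi (open squares). The dotted line marks a value of 2, under which 7 members fell in some sample, and in no row do all filled circles lie to one side of all open squares.

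No member changed at an adjusted p under 0.05 by limma with Benjamini-Hochberg adjustment over all probes, where 1 of 6716 probes (0.0149%) did, and the adjusted p of every member was 1.00. At an unadjusted p under 0.05 limma gave 1 member of 72, against 1.97% of all probes. In no member did all denervated values lie above all normal values, against 3.37% of all probes, and in none did they all lie below, against 2.53%. At the thresholds of the methods (a log2 difference over 1 and an unadjusted p under 0.05) 1 member, Defb16-ps, was higher, against 1.04% of all probes, and 0 were lower, against 0.298%. The rank product test gave 5 members higher (6.94%), against 3.11% of all probes, and 2 lower (2.78%), against 2.11%, and 0 at an adjusted p under 0.05. By sign alone 31 members were higher, where 52.0% of all probes were, and 41 were lower, where 48.0% of all probes were. The median difference was -0.10 over the members and 0.02 over all probes. The median within-group SD of a member was 0.63.

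A log2 difference above 1 was found in 8 members (8.06% of all probes) and one below -1 in 3 members (4.02% of all probes). Of these 11 members 6 (54.5%) fell under 2 in some sample, as did 50.1% of all probes with differences of this size. The differences of 47 members lay between -0.5 and 0.5. In 56 members (77.8%) the within-group SD was larger than the difference, as in 78.9% of all probes. For the 65 members with no value under 2 the 95% interval of the difference reached 1.16 to either side in the median, with a range of 0.613 to 3.87, and for 12 members of the 72 the whole interval lay between -1 and 1. For the rest a difference of 1 or of -1 lay inside the interval.

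**Figure D2:**
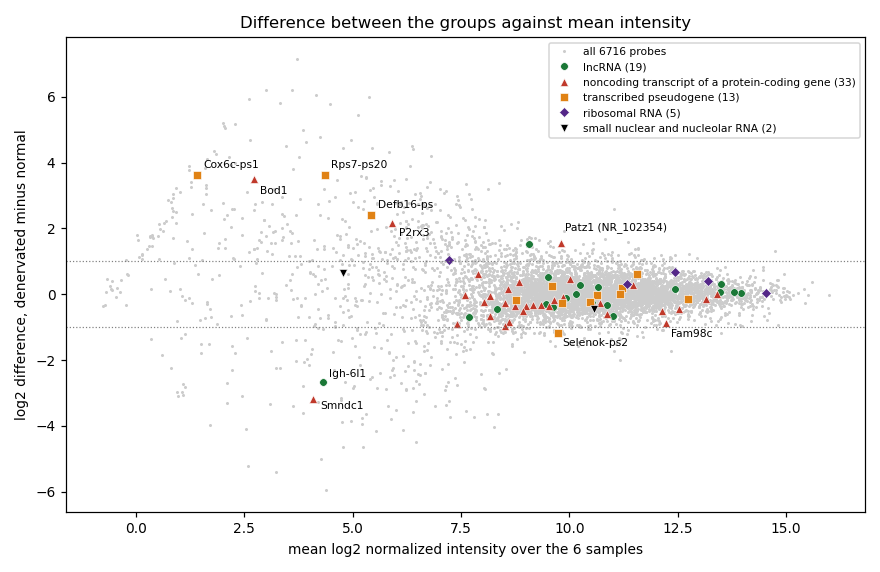
Log2 difference, denervated minus normal (y axis), against the mean log2 normalized intensity over 6 samples (x axis) for all 6716 probes (grey) and the 72 members (symbols by class). The dotted lines mark differences of 1 and -1; the 3 members above 3 and the 2 below -2 all had a mean intensity under 5.

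Among the transcribed pseudogenes Defb16-ps, a relic of a beta-defensin gene (a family of antimicrobial peptides), was the member that passed the thresholds of the methods. Its values were 7.40, 5.70 and 6.82 in denervated hippocampi, against 3.43, 6.04 and 3.19 in normal hippocampi. Normal sample 2 lay above denervated sample 2, so that the groups overlapped. The log2 difference was 2.42 (SE 0.89), with a limma p of 0.035, an adjusted p of 1.00 and an exact permutation p of 0.2, where 0.1 is the smallest that 3 samples against 3 allow (two-sided). With values under 5 set to 5, which changes normal samples 1 and 3, the difference was 1.29 and did not pass the thresholds. Nor did the probe pass after quantile normalization (2.27), with an intensity trend, with the replicate block or by the methods' t-test. It also did not pass without denervated sample 1 (difference 2.04), denervated sample 3 (2.33), normal sample 1 (2.03) or normal sample 3 (1.91). Without normal sample 2 the difference was 3.33 (limma, adjusted p = 0.68).

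No other pseudogene passed the thresholds of the methods by limma. By the rank product test, which the methods also name, Cox6c-ps1 and Rps7-ps20 passed them as well as Defb16-ps. Over the 13 pseudogenes 7 were higher and 6 lower by sign, with a median difference of 0.02. Gapdh-ps1, a copy of the gene for the glycolytic enzyme GAPDH, had 12.28, 11.15 and 12.20 in denervated hippocampi, against 10.85, 10.69 and 12.24 in normal hippocampi (difference 0.62, SE 0.56, exact permutation p = 0.3). Normal sample 3 stood among the high denervated samples. Selenok-ps2, a copy of the gene for selenoprotein K of the endoplasmic reticulum, had the most negative difference among members with no value under 2. Its values were 7.77, 10.50 and 9.18 in denervated hippocampi, against 11.60, 9.05 and 10.32 in normal hippocampi (difference -1.17, SE 0.92, exact permutation p = 0.5). Both groups spread over more than 2 log2 units and overlapped.

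Several pseudogenes had small estimated differences with wide 95% intervals. Hmox2-ps1, a copy of the gene for heme oxygenase 2, averaged 11.17 ± 0.48 in denervated and 11.16 ± 0.04 in normal hippocampi (SD, n = 3 each). The interval of its difference ran from -0.80 to 0.83. Dzip1-ps1 averaged 10.61 ± 0.26 in denervated and 10.64 ± 0.37 in normal hippocampi (SD, n = 3 each), with an interval of -0.82 to 0.76. Hmgb1-ps2, a copy of the gene for the chromatin protein HMGB1, had 9.94, 10.69 and 10.42 in denervated hippocampi, against 11.21, 9.53 and 11.04 in normal hippocampi, so that normal sample 2 was the lowest of all and the other normal samples the highest. The difference was -0.25 (SE 0.53, 95% interval -1.55 to 1.06). Lin28c, which RefSeq classes as a transcribed pseudogene, differed by -0.13 (95% interval -0.89 to 0.63).

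The 5 ribosomal RNA probes were all higher in denervated hippocampi by sign, where 52.0% of all probes were. None of the 5 passed the thresholds of the methods by limma or the rank product test. Their median difference was 0.39, with a range of 0.04 to 1.03, against 0.02 over all probes. Rn45s is the precursor that is cut into the 18S, 5.8S and 28S RNAs, and Rn5s encodes the 5S RNA, which is made separately by RNA polymerase III. The 5 probes are not independent, since 4 of them belong to this precursor. The labelling kit primes from poly(A) tails, which mature ribosomal RNA lacks, and how these probes gained signal was not tested.

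Rn18s gave 8.17, 7.35 and 7.72 in denervated hippocampi, against 5.47, 8.71 and 5.97 in normal hippocampi. Normal sample 2 was the highest of all 6 samples and the other normal samples the lowest. The difference was 1.03 (SE 0.88, limma p = 0.29, exact permutation p = 0.4). Rn28s gave 12.94, 12.53 and 12.86 in denervated hippocampi, against 12.38, 12.81 and 11.16 in normal hippocampi (difference 0.66, SE 0.48, exact permutation p = 0.2). Normal sample 2 lay within the denervated range, and normal sample 3 was far below it.

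Rn45s gave 13.51, 13.07 and 13.63 in denervated hippocampi, against 13.05, 13.69 and 12.29 in normal hippocampi (difference 0.39, SE 0.43). The order of the normal samples was that of Rn28s. Rn5-8s gave 14.87, 14.20 and 14.59 in denervated hippocampi, against 13.21, 14.93 and 15.40 in normal hippocampi, where normal samples held both the lowest and the highest value (difference 0.04, SE 0.62). Its sign turned to -0.047 after quantile normalization and to -0.19 in the ratio of linear means. Rn5s gave 11.20, 12.11 and 11.17 in denervated hippocampi, against 11.70, 10.32 and 11.49 in normal hippocampi (difference 0.32, SE 0.49). Normal sample 2 was the lowest here, and without it the difference was -0.10.

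**Figure D3:**
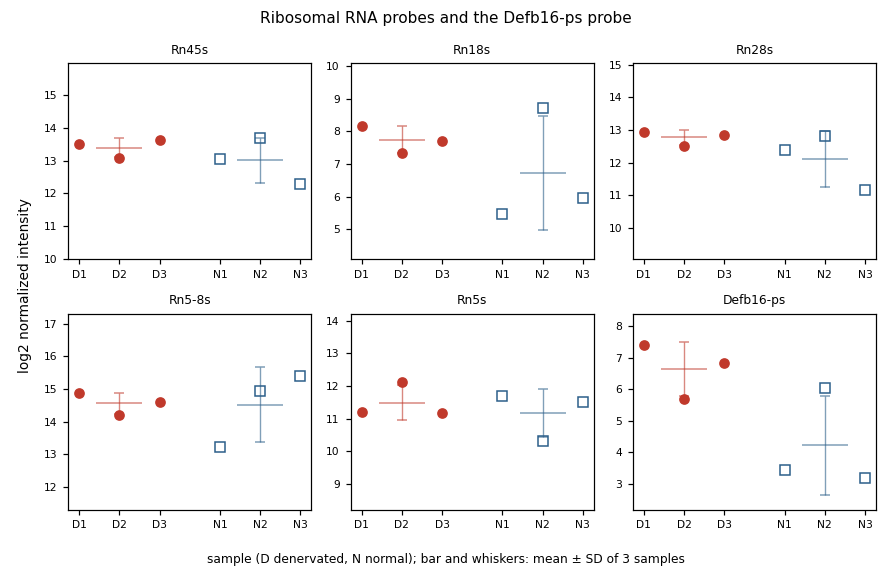
log2 normalized intensity (y axis, each panel with its own range) of the 5 ribosomal RNA probes and of Defb16-ps in each denervated (D, filled circles) and normal sample (N, open squares), with the mean ± SD of 3 samples. Normal sample 2 was the highest of all samples for Rn18s (8.71) and Rn45s (13.69) and the lowest for Rn5s (10.32).

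The lncRNA genes were close to level as a group. Of the 19 probes 10 were higher and 9 lower by sign, with a median difference of 0.01. Abhd11-as1, an antisense RNA of the gene Abhd11, varied least of all members with no value under 2, with an SD of 0.098 over the 6 samples. It gave 10.12, 10.10 and 10.28 in denervated hippocampi, against 10.09, 10.29 and 10.08 in normal hippocampi. The difference was 0.01, and its 95% interval ran from -0.60 to 0.62. Vof16, a rat transcript first described in cerebral ischemia, gave 7.70, 7.78 and 8.86 in denervated hippocampi, against 8.48, 8.55 and 8.62 in normal hippocampi (difference -0.44, SE 0.39, exact permutation p = 0.4). The normal samples lay close together and between the denervated samples.

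The brightest lncRNA probes also had small estimated differences, with wide intervals. LOC100910802 averaged 13.98 ± 0.57 in denervated and 13.94 ± 0.45 in normal hippocampi (SD, n = 3 each). The difference was 0.05 (95% interval -0.98 to 1.07). 2810025M15Rikl averaged 13.51 ± 0.17 in denervated and 13.45 ± 0.16 in normal hippocampi (SD, n = 3 each). The difference was 0.06 (95% interval -0.58 to 0.71). The transcripts of LOC100910973 differed by 0.31 (NR_102351, 95% interval -0.57 to 1.19) and by 0.08 (NR_102352, 95% interval -0.60 to 0.75). No role is given for these genes in the annotation used here. The largest lncRNA difference without a value under 2 was that of LOC100910620 (NR_102365), which gave 9.67, 10.26 and 9.60 in denervated hippocampi, against 9.49, 5.44 and 9.997 in normal hippocampi (difference 1.53, SE 1.22). A single low value, that of normal sample 2, made this difference, which was 0.10 without it.

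Of the members 7 lay on chromosome 20, and 32 of the 67 RT1 genes that RefSeq places on this chromosome lie between the outermost of them. RT1 is the major histocompatibility complex of the rat, the cluster that encodes the antigen-presenting proteins. Of the 7 members 2 were higher and 5 lower by sign, where 48.0% of all probes were lower. Their median difference was -0.17, and none passed the thresholds of the methods by limma or the rank product test. RT1-CE6 gave 9.03, 10.27 and 10.04 in denervated hippocampi, against 9.29, 9.07 and 9.36 in normal hippocampi. Denervated sample 1 was the lowest of all samples while the other denervated samples were the highest (difference 0.54, SE 0.40, exact permutation p = 0.4). RT1-T24-2 differed by -0.25 (SE 0.32).

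The other 5 members of this region differed by -0.69 to 0.16. AA926063 differed by -0.12, CB741658 by 0.16, E230034O05Rik by -0.29 and Tnxa-ps1, a pseudogene of the matrix protein tenascin-X, by -0.17. Cb707485 had the most negative difference, with 6.82, 7.34 and 7.85 in denervated hippocampi, against 7.82, 8.95 and 7.29 in normal hippocampi (difference -0.69, SE 0.53, exact permutation p = 0.5). The groups overlapped in each of the 7.

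Noncoding transcripts of protein-coding genes were lower by sign in 25 of 33 probes and higher in 8, where 48.0% of all probes were lower. Their median difference was -0.27, against 0.02 over all probes. None passed the thresholds of the methods in either direction by limma. By the rank product test Bod1 and Patz1 (NR_102354) passed them as higher and Smndc1 as lower. Several probes shared a gene, so the 33 signs are not independent. They also share samples, and denervated sample 2 held the lowest value of 27 of the 72 members. Without that sample the median difference over the 72 members was 0.05, and it was not computed for this class alone. The probes with the most negative differences were those of Ercc8 (NR_073140), Tyw5, Fam98c and Ngrn, apart from a dim probe described further on. Ercc8, which encodes a protein of transcription-coupled DNA repair, gave 7.86, 7.31 and 8.97 in denervated hippocampi, against 9.03, 9.09 and 8.87 in normal hippocampi. Denervated sample 3 lay among the normal samples, which spanned a narrow range. The difference was -0.95 (SE 0.47, limma p = 0.090, adjusted p = 1.00, exact permutation p = 0.2), and it was -1.41 without denervated sample 3 (limma, adjusted p = 1.00), which passes the thresholds of the methods.

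Tyw5, a tRNA-modifying hydroxylase, gave 6.68, 5.79 and 8.41 in denervated hippocampi, against 6.88, 8.71 and 7.98 in normal hippocampi (difference -0.90, SE 0.81). Ngrn, which encodes neugrin, gave 8.42, 9.27 and 6.88 in denervated hippocampi, against 9.21, 8.68 and 9.18 in normal hippocampi (difference -0.84, SE 0.64). In both genes the lowest value was a denervated one, while denervated sample 3 of Tyw5 lay within the normal range and denervated sample 2 of Ngrn above it. Fam98c was the most variable member with no value under 2, with an SD of 2.13 over the 6 samples. It gave 10.75, 14.43 and 10.19 in denervated hippocampi, against 14.09, 9.98 and 13.96 in normal hippocampi. Denervated sample 2 and normal samples 1 and 3 were high, and the other 3 samples were low by more than 3 log2 units. The difference of -0.89 had an SE of 1.58 and an exact permutation p of 1.0.

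Some of these transcripts come from genes with known roles in neurons. Nsmf encodes a messenger that travels from synapses with NMDA receptors to the nucleus. Its probe gave 12.13, 11.84 and 11.70 in denervated hippocampi, against 12.67, 11.90 and 12.62 in normal hippocampi (difference -0.50, SE 0.33, exact permutation p = 0.2). A further probe of the array that carries the same transcript accession, under another form of identifier and so not a member, gave 12.68, 11.50 and 13.24 in denervated hippocampi, against 12.77, 13.38 and 12.29 in normal hippocampi (difference -0.34, SE 0.55). The sign was the same in both, but the high and low samples were not.

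The receptors, transporters and signalling genes that follow did not pass the thresholds by limma or the rank product test. Hrh3, the histamine receptor that restrains transmitter release, differed by -0.01 (SE 0.60). Oprm1, the mu opioid receptor, differed by -0.34 (SE 0.45), and Prrt2, a presynaptic protein, by -0.28 (SE 0.52). Ppp2r2b, a regulatory subunit of protein phosphatase 2A found in brain, differed by 0.46 (SE 0.50). Slc12a1, a chloride cotransporter of the kidney, differed by -0.04 (SE 0.78) and Gcgr, the glucagon receptor, by -0.19 (SE 0.30). Atp2a2, the calcium pump of the endoplasmic reticulum, differed by -0.59 (SE 0.49). In each of these 7 the 95% interval included 0.

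**Figure D4:**
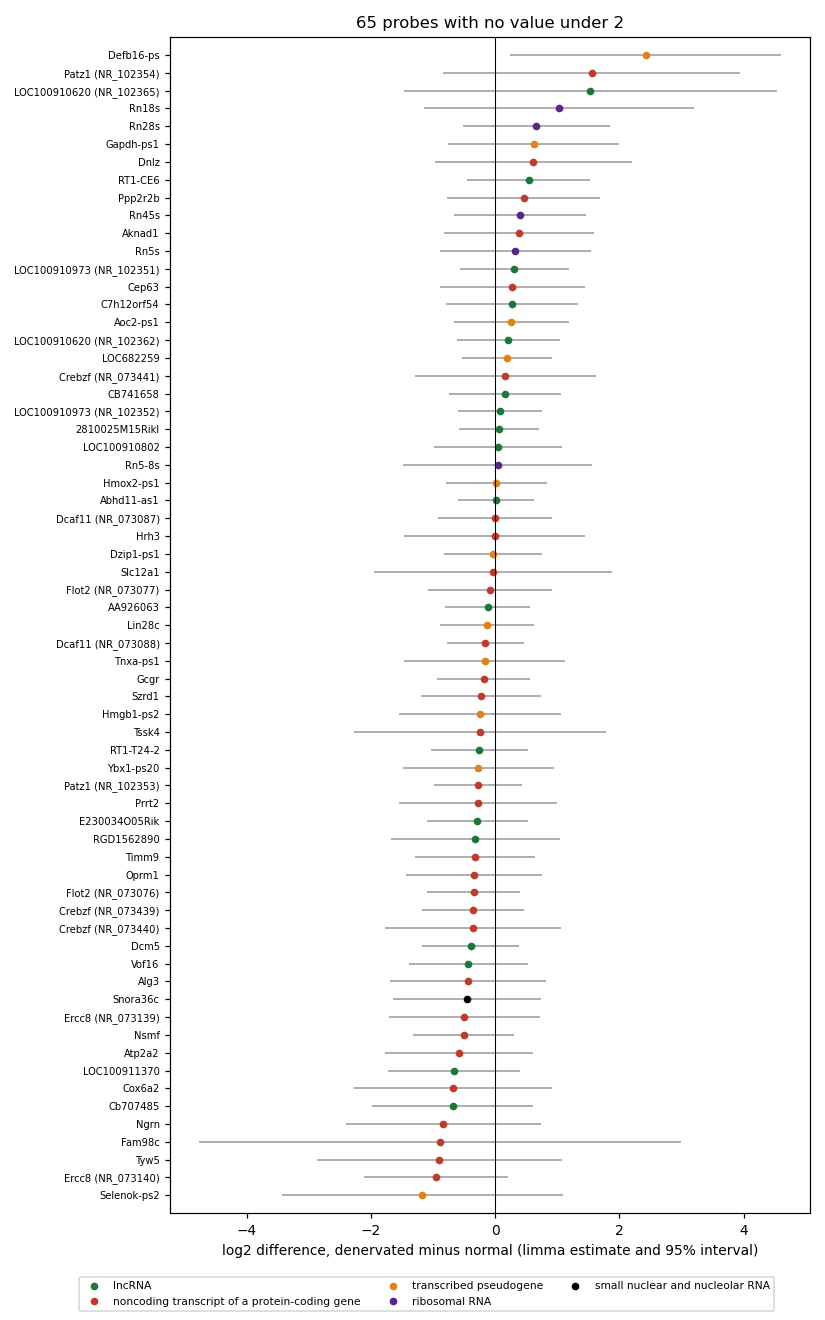
Log2 difference, denervated minus normal, with its 95% interval from limma (x axis) for the 65 members with no value under 2 (rows, in order of the difference, coloured by class). The interval of Defb16-ps, from 0.24 to 4.60, is the only one that leaves out 0. Of the 65 points 39 lie below 0, as do 3033 of all 6176 probes with no value under 2.

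Where a gene had several probes, they often did not vary together over the samples. For Patz1, a zinc finger transcription factor, the probe of NR_102354 gave 10.81, 9.99 and 10.92 in denervated hippocampi, against 7.74, 11.23 and 8.10 in normal hippocampi (difference 1.55, SE 0.97, exact permutation p = 0.4). Normal sample 2 was the highest and the other normal samples were the lowest. The probe of NR_102353 gave 10.76, 10.18 and 10.73 in denervated hippocampi, against 10.73, 10.91 and 10.85 in normal hippocampi (difference -0.27, SE 0.29). Pearson's r between the 2 probes was -0.01 over the 6 samples. Without normal sample 2 the NR_102354 probe differed by 2.65 (limma, adjusted p = 0.68).

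The probes of LOC100910620 did not vary together either, but in another pattern. Normal sample 2 was low in only 1 of them, whereas it was the highest sample for Patz1 (NR_102354). NR_102362 gave 10.88, 10.33 and 11.10 in denervated hippocampi, against 10.40, 10.92 and 10.37 in normal hippocampi (difference 0.21, SE 0.34), and r with NR_102365 was -0.44. The Ercc8 probes did vary together (r = 0.81). Ercc8 (NR_073139) gave 8.77, 7.91 and 9.35 in denervated hippocampi, against 8.73, 9.79 and 8.9998 in normal hippocampi (difference -0.50, SE 0.49). The 3 probes of Crebzf, a bZIP cofactor, had r of 0.55 to 0.64 with differences of -0.36, -0.36 and 0.16. Those of Dcaf11, a substrate adaptor of a ubiquitin ligase, had r of -0.32 and differences of -0.003 and -0.16. These r values are descriptions over 6 samples that come from 2 groups, and probes of 1 gene may measure shared or different transcripts.

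The small RNA Snora36c, whose hairpin is printed above, gave 10.45, 9.84 and 10.77 in denervated hippocampi, against 9.96, 11.41 and 11.03 in normal hippocampi (difference -0.45, SE 0.49, exact permutation p = 0.4). The Mir664-2 probe gave 10.44, 9.81 and 10.78 in denervated hippocampi, against 10.38, 11.21 and 10.91 in normal hippocampi (difference -0.49, SE 0.39). Both probes were lowest in denervated sample 2 and highest in normal sample 2. Whether a probe of either tells the 2 RNAs apart was not tested, since probe sequences were not used here.

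**Figure D5:**
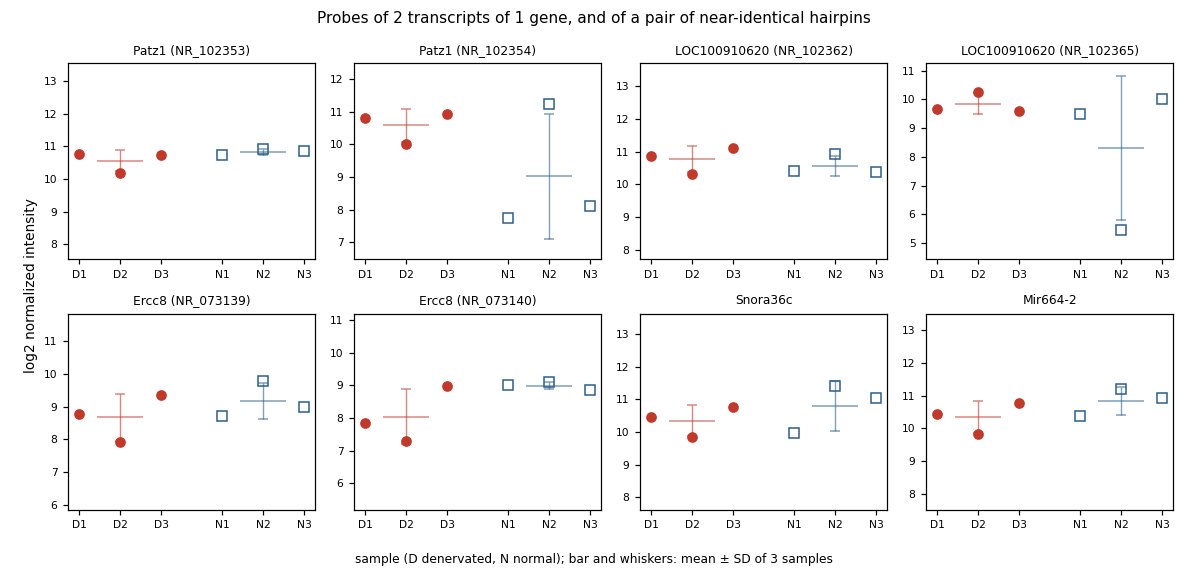
log2 normalized intensity (y axis, each panel with its own range) in each denervated (D, filled circles) and normal sample (N, open squares), with the mean ± SD of 3 samples, for the probe pairs of Patz1, LOC100910620 and Ercc8 and for Snora36c and Mir664-2. In normal sample 2 the Patz1 probes were both near 11 while only NR_102354 was near 8 in the other normal samples.

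The 7 members with a value under 2 (9.72% of 72, against 8.04% of all probes) had differences of up to 3.63, and none passed the thresholds of the methods by limma. By the rank product test 5 of them did, with Cox6c-ps1, Rps7-ps20 and Bod1 higher and Smndc1 and Igh-6l1 lower. Over all probes that test called 3.11% higher and 2.11% lower, and the share among all dim probes was not counted. Its permutations mix values over probes and so take no account of a probe's own spread. The adjusted p of these 5 members by that test ran from 0.32 to 0.53. A cluster of values near or under 0 separates these dim spots from the rest, and for such values an order is not meaningful. Cox6c-ps1, a copy of the gene for a cytochrome c oxidase subunit, gave 2.30, 7.72 and -0.37 in denervated hippocampi, against -0.53, -0.29 and -0.42 in normal hippocampi (difference 3.63, SE 1.97). Only denervated samples 1 and 2 were above 2. The size of this difference has little meaning, since it was 0.91 with values under 5 set to 5, 6.58 in the ratio of linear means and 1.38 without denervated sample 2. Rps7-ps20, a copy of the gene for ribosomal protein S7, gave 7.88, 8.42 and 2.20 in denervated hippocampi, against 2.30, -0.31 and 5.60 in normal hippocampi (difference 3.63, SE 2.17).

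Bod1, which serves chromosome alignment in mitosis, gave 5.33, 8.37 and -0.29 in denervated hippocampi, against -0.21, -0.42 and 3.52 in normal hippocampi (difference 3.51, SE 2.35). In Cox6c-ps1, Rps7-ps20 and Bod1 denervated sample 2 was the highest and denervated sample 3 was the lowest of the denervated samples. P2rx3, an ATP-gated channel of sensory neurons, gave 7.58, 7.58 and 5.81 in denervated hippocampi, against 7.60, -0.24 and 7.14 in normal hippocampi (difference 2.16, SE 2.16), where normal sample 2 alone was under 2.

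On the other side Smndc1, a spliceosome assembly factor, gave 8.08, -0.42 and -0.19 in denervated hippocampi, against 4.86, 7.37 and 4.82 in normal hippocampi (difference -3.20, SE 2.41). Its highest value was also a denervated one, and its sign turned to 0.24 with values under 5 set to 5 and to 0.29 in the ratio of linear means. Igh-6l1, an immunoglobulin-like gene, gave 5.53, -0.31 and 3.71 in denervated hippocampi, against 5.98, 7.07 and 3.85 in normal hippocampi (difference -2.66, SE 1.63). LOC252890, a small nuclear RNA, gave 5.48, 2.39 and 7.37 in denervated hippocampi, against -0.26, 6.78 and 6.81 in normal hippocampi (difference 0.64, SE 2.29). In all of these the groups overlapped.

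The median difference was -0.10 over the 72 members, -0.01 over 292 microRNA precursor probes, -0.01 over 1291 predicted RefSeq transcripts and 0.02 over all probes. No test of the difference between these sets was made.

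The calls moved with single samples. Without normal sample 2, 4 members were higher at the thresholds of the methods (3.65% of all probes), namely Defb16-ps, Patz1 (NR_102354), Rn18s and Dnlz, a partner of the mitochondrial chaperone HSP70. Without denervated sample 3, 3 members were higher (1.98% of all probes), all of them dim (Bod1, Cox6c-ps1 and Rps7-ps20), and Ercc8 (NR_073140) was lower (1.18% of all probes). Smndc1 was lower without denervated sample 1 (0.328% of all probes). Without denervated sample 2 LOC100911370 was lower (1.34% of all probes) and Defb16-ps higher (0.864% of all probes). The lowest adjusted p of these calls by limma was 0.68. The joint omission of denervated sample 3 and normal sample 2, a pair that resembled each other across the groups, was a choice made after seeing the data. It left 2 samples in each group, and then 12 members (16.7%) were higher without overlap, against 23.2% of all probes, and 14 (19.4%) were lower, against 18.8% of all probes. Of the members 7 passed the thresholds of the methods in the higher direction, against 4.01% of all probes. These were Defb16-ps, Patz1 (NR_102354), Rn18s, Dnlz, Bod1, Cox6c-ps1 and Rps7-ps20, and the lowest adjusted p among them was 0.45. Ercc8 (NR_073140) passed in the lower direction, against 1.38% of all probes.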

How the data were processed

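Hippocampal RNA of 3 denervated and 3 normal samples was hybridized to RiboArray lncDETECT rat arrays, which were read on a GenePix 4000B scanner. The values deposited by the authors are log2 normalized intensity after 50% scaling of the array, with repeated spots combined by their median and repeated arrays by their mean. Background correction and a filter on dim probes are not given in the sources used here. Signals near background or near the scanner's upper limit limit the differences that can be seen, and the number of arrays limits the precision. The deposited lists of changed lncRNAs hold the authors' own comparison (log2 ratio, ratio and p-value) and were not used.

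No further scaling was applied. The comparison was a two-sided limma fit (version 3.58.1, R 4.3.3, functions lmFit and eBayes) of all 6716 probes with no blocking term, and p-values were adjusted by Benjamini-Hochberg over the same probes. Single members were also compared by an exact permutation test over samples. The methods' paired hippocampi are not tied to sample numbers in the labels, so the main fit used no pairing. Its p-values measure the spread between these samples, which may be technical. Samples of equal number did not deviate together, which cannot decide whether they were paired. The listed RNA integrity number of every normal sample was lower than that of every denervated sample, and its part in the results was not tested. The fit was run on simulated data, which checked only that the mean estimate lay near the added difference. The simulated noise was independent between probes, so this check does not cover the patterns that samples share here.

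Genes were taken from the RefSeq table of GRCr8. The members and lists were chosen with earlier results of these data known, and the classes after the annotation was seen. Of the lists, 11 members fell in the pseudogene list, 5 in ribosomal RNA and 1 each in antisense RNA, brain lncRNA and small nucleolar RNA. By a fixed rule the text names members with an unadjusted p under 0.05, the 6 with the largest difference in each direction and no value under 2, the 6 brightest, the 3 dimmest, the least and the most variable, and up to 4 brightest of each list. Others named were chosen after their values were seen. Alternatives were quantile normalization, median centring, the upper 50% of probes, a floor of 5, an intensity trend, the replicate block, the methods' t-test, the rank product test (9 ratios, 1000 permutations), ratios of linear means, the series value table and leaving out each sample. The joint omission of denervated sample 3 and normal sample 2, the addition of the 9 transcripts without a gene and 1 value per gene were added after seeing the data. Figures were drawn with matplotlib 3.10.9.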

Additional observations from a re-analysis of the deposited data

How the results depend on the processing

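The number of members at an adjusted p under 0.05 was 0 in every alternative. The ratios of linear means kept the p-values of the main fit, and the series value table held nearly identical values. Neither could therefore move this count. An unadjusted p under 0.05 was found for 1 member in the main limma fit and for 7 by the rank product test. By limma that number was 0 with values under 5 set to 5, and 5 without denervated sample 3. After quantile normalization the 1 member higher at the thresholds of the methods was Rps7-ps20 and not Defb16-ps. Defb16-ps is too dim to be among the upper 50% of probes, where the count was 0. It was lost (count 0) with values under 5 set to 5, an intensity trend, the replicate block and the methods' t-test. The rank product test gave 5 higher (3.11% of all probes) and 2 lower (2.11%). The deviations of equally numbered samples from their group means correlated at -0.05, -0.52 and -0.35. Those of denervated sample 3 and normal sample 2 correlated at 0.44. Patterns shared by samples of unequal number can hide an effect of the rat, so this check cannot decide whether equal numbers were paired. The replicate block left 0 members past the thresholds of the methods. Leaving out 1 sample at a time gave 0 to 4 higher and 0 to 1 lower at the thresholds (0.581 to 3.65% and 0.0893 to 1.34% of all probes). It gave 1 to 8 higher and 3 to 7 lower without overlap (5.18 to 15% and 4.08 to 11.3% of all probes), and a median difference of -0.17 to 0.05. Without denervated sample 3 and normal sample 2 together 7 were higher and 1 lower at the thresholds (4.01% and 1.38% of all probes). Without overlap 12 were then higher and 14 lower (23.2% and 18.8% of all probes). The median difference was otherwise -0.18 (quantile normalization) to 0.01 (upper 50%).

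Of 29 named members 18 kept their sign throughout. Signs turned for Rn5-8s (-0.047 after quantile normalization, -0.19 in linear means), Smndc1 (0.24 with the floor, 0.29 in linear means), Dcaf11 (NR_073087; 0.0088 in linear means, 0.034 without both samples), Hmox2-ps1 (-0.24) and Dzip1-ps1 (0.0925), both without both samples. Leaving out 1 sample gave -0.018 to 0.15 for 2810025M15Rikl, -0.044 to 0.080 for Abhd11-as1, -0.17 to 0.26 for Dcaf11 (NR_073087), -0.17 to 0.18 for Dzip1-ps1, -0.78 to 0.063 for Hmgb1-ps2, -0.22 to 0.26 for Hmox2-ps1, -0.21 to 0.36 for LOC100910802, -0.059 to 0.19 for LOC100910973 (NR_102352), -0.61 to 0.48 for Rn5-8s and -0.10 to 0.58 for Rn5s. The cause was not tested.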

Other observations

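The 9 curated transcripts without a gene in the RefSeq table had a median log2 difference of -0.05, from -1.79 to 0.73, with 4 higher and 5 lower by sign. In 1 of them, NR_038113, the denervated values of 13.00, 13.21 and 12.91 all lay above the normal values of 12.33, 12.55 and 12.62 (difference 0.54, SE 0.26), and it was singled out after its values were seen. With the 9 added to the members the median difference was -0.09.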
